A study of Caenorhabditis elegans with 24 samples.

Results

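Vitellogenins are the lipid-binding precursors of yolk, and C. elegans has 6 genes for them, vit-1 to vit-6. They were taken from the deposited count and FPKM tables by gene name, and all 6 were found among 46778 genes and passed the filter on low counts that left 14865 genes for testing. RNA was from pooled young adults grown from synchronised L1 larvae on NGM plates at 20 °C, in 6 biological replicates for each of 4 genotypes. Every genotype, the reference included, carried 40Q::YFP, a polyglutamine stretch fused to a yellow fluorescent protein and expressed in muscle cells from the unc-54 promoter (strain AM141, labelled wildtype and called 40Q here). The other genotypes were 40Q; unc-1(vlt10), with a nonsense allele from a chemical mutagenesis screen, 40Q; nhr-1(vlt16), with a nonsense point mutation made by CRISPR, and, with both alleles, 40Q; unc-1(vlt10); nhr-1(vlt16), called the double mutant here. Each genotype was 1 strain, so differences between genotypes cannot be told apart from other differences between the strains. unc-1 encodes a stomatin-like protein of neurons and muscle, and nhr-1 a nuclear hormone receptor.

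In adult hermaphrodites the vitellogenins are made in the intestine, loaded with lipid with the help of the microsomal triglyceride transfer protein DSC-4, secreted into the body cavity and taken up by growing oocytes through the receptor RME-2. Their transcription starts around the change from larva to adult and depends on intestinal GATA factors such as ELT-2, on the homeodomain partners UNC-62 and CEH-60, on the zinc finger proteins PQM-1 and LIN-29, and on insulin and TORC2 signalling, while MAB-3 keeps the genes off in males. The products of vit-1 to vit-5 are the large yolk polypeptides, and the product of vit-6 is cut into smaller ones.

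Of the 6 genes, 5 are on the X chromosome in the WBcel235 annotation. vit-1 (WBGene00006925) lies at 7727889 to 7733168 on the plus strand with 5 exons, and vit-2 (WBGene00006926) at 5101042 to 5106169 on the plus strand with 5 exons. vit-4 (WBGene00006928, 3558769 to 3563965) and vit-3 (WBGene00006927, 3567355 to 3572549) are neighbours on the minus strand with 3389 bases between them and 6 exons each, and vit-5 (WBGene00006929, 3403471 to 3408603) lies on the plus strand, also with 6 exons. vit-6 (WBGene00006930) is on chromosome IV, at 8261157 to 8266459 on the plus strand with 5 exons. vit-3, vit-4 and vit-5 are close copies of each other, and how reads that fit several genes were treated is not given in the sources used here, so the division of reads among these copies is uncertain. Annotated genes that overlap vit-2, vit-3 and vit-4 had 0 to 5 reads in any library.

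The libraries held 19098458 to 30467364 reads on genes, with a median of 27525192 in the double mutants and of 21474733 to 21993626 in the other genotypes. Values below are reads on a gene relative to the scaled size of its library (CPM, with TMM scaling), tests are edgeR quasi-likelihood F-tests in a single fit of the 24 libraries, and p-values are Benjamini-Hochberg adjusted over the 14865 genes tested. A gene is called when the adjusted p is below 0.05 and the change exceeds 2-fold. Errors are SD over n = 6 libraries unless a standard error (SE) of a log2 fold change is named, and the p-values measure the spread between these pooled samples. Transcripts of the mutated genes were at 8.12 ± 1.28 CPM for unc-1 in 40Q against 1.09 ± 0.267 in unc-1(vlt10) and 0.903 ± 0.0790 in double mutants, and at 28.1 ± 1.90 CPM for nhr-1 in 40Q against 14.8 ± 1.82 in nhr-1(vlt16) and 14.3 ± 1.82 in double mutants, so the libraries matched their labels.

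The vitellogenins were among the most abundant transcripts of these animals. In 40Q, vit-6, vit-2 and vit-5 ranked 1, 2 and 3 among all genes by mean count, vit-1 ranked 15, vit-4 ranked 22 and vit-3 ranked 63. The 6 genes together took 4.71 ± 0.187% of the reads on genes in 40Q, 3.53 ± 0.138% in unc-1(vlt10), 4.45 ± 0.190% in nhr-1(vlt16) and 4.06 ± 0.356% in double mutants. The highest unc-1(vlt10) library, at 3.67%, lay below the lowest 40Q library at 4.57%, and so did the highest double mutant library at 4.52%, whereas the nhr-1(vlt16) libraries reached 4.66% and overlapped 40Q. Even the least abundant member, vit-3, had at least 10822 reads in every unc-1(vlt10) library, so counting error was small beside the spread between libraries.

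Per kilobase of annotated transcript, the order of the levels in 40Q was vit-6 (3224 ± 145 CPM per kilobase), vit-2 (3173 ± 163), vit-5 (1955 ± 85.3), vit-1 (586 ± 28.9), vit-4 (470.2 ± 29.0) and vit-3 (296 ± 18.6). vit-6 and vit-2 did not differ beyond their spread on this scale, whereas the 40Q libraries of every other pair of neighbours in the order were apart. In the deposited FPKM values vit-6 stood 1.39 ± 0.0411 times above vit-2 in 40Q, against 1.02 ± 0.0300 times per kilobase of annotated transcript. The authors' FPKM divide vit-6 by a length of 3627 bases where the annotated transcript has 5057, and the lead of vit-6 over vit-2 thus depended on the length used. The order of the other 4 genes was the same in unc-1(vlt10), with vit-5 at 1489.8 ± 85.6, vit-1 at 211 ± 12.2, vit-4 at 164 ± 9.65 and vit-3 at 116 ± 4.26 CPM per kilobase, but vit-2 (2558 ± 133) and vit-6 (2441 ± 117) had changed places. The ranges of their levels overlapped, but the ratio of vit-2 to vit-6 reads within a library was 1.01 to 1.05 in unc-1(vlt10) and 0.911 to 0.984 in 40Q, without overlap. In nhr-1(vlt16) and in double mutants the order of the means was that of 40Q. The ranges of vit-6 (3008 ± 164 and 2649.6 ± 304 CPM per kilobase) and vit-2 (2799 ± 142 and 2526 ± 272) again overlapped. So did those of vit-1 and vit-4 in the double mutants. Within a library, the ratio of vit-2 to vit-6 reads was 0.894 to 0.929 in nhr-1(vlt16) and 0.899 to 0.964 in double mutants. The ratio of vit-1 to vit-4 reads was 1.26 to 1.32 in double mutants.

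The first comparison asked how the unc-1 mutation affects these transcripts. All 6 vitellogenins were lower in unc-1(vlt10), and they fell to very different extents. vit-1, vit-3 and vit-4 were 2.55- to 2.86-fold lower and were called, whereas vit-2, vit-5 and vit-6, the more abundant genes, were 1.24- to 1.32-fold lower. For comparison, 3.26% of all tested genes were called lower, 22.6% had an adjusted p below 0.05 and were lower (25.1% were higher), and in 13.3% every mutant library lay below every 40Q library. These 3 counts were 3, 6 and 6 of the 6 vitellogenins, and the median log2 fold change was -0.88 for them and 0.0193 for all tested genes.

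The lowest, median and highest level of vit-1 were 2816, 2961 and 3189.5 CPM in 40Q and 981, 1097 and 1131 CPM in unc-1(vlt10). vit-1 thus changed by -1.47 on the log2 scale (SE 0.0477, edgeR adjusted p = 1.81e-21). No unc-1(vlt10) library came near the 40Q range. vit-4, the nearest to vit-1 in level, had 2107, 2346 and 2464 CPM in 40Q and 738, 805 and 872 CPM in unc-1(vlt10). The vit-4 change of -1.52 on the log2 scale (SE 0.0506, edgeR adjusted p = 3.51e-21) was the strongest of the 6, with 1.22% of the tested genes below it. For vit-3, the neighbour of vit-4 on the chromosome, the levels were 1377, 1416 and 1593 CPM in 40Q and 543, 572 and 594 CPM in unc-1(vlt10). vit-3 changed by -1.35 on the log2 scale (SE 0.0484, edgeR adjusted p = 1.66e-20), again with a wide gap between the genotypes.

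vit-5, the third close copy, behaved unlike vit-3 and vit-4. Its levels were 9049, 9399 and 10045 CPM in 40Q and 6625, 7398 and 7608 CPM in unc-1(vlt10), which gave a log2 fold change of -0.39 (SE 0.0488, edgeR adjusted p = 6.07e-08). vit-6 went from 15609.5, 16087 and 17262 CPM to 11424, 12550.4 and 13013 CPM and changed by -0.40 on the log2 scale (SE 0.0533, edgeR adjusted p = 2.12e-07). vit-2 showed the smallest fall, from 14802, 15339.6 and 16799 CPM to 11640.0, 12878 and 13209 CPM (log2 fold change -0.31, SE 0.0519, edgeR adjusted p = 9.35e-06). In each of these 3 genes the highest mutant library was below the lowest 40Q library, but the distance was a small part of the level. In whole-animal RNA, less vitellogenin mRNA per intestinal cell and less intestine per animal cannot be told apart.

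**Figure D1:**
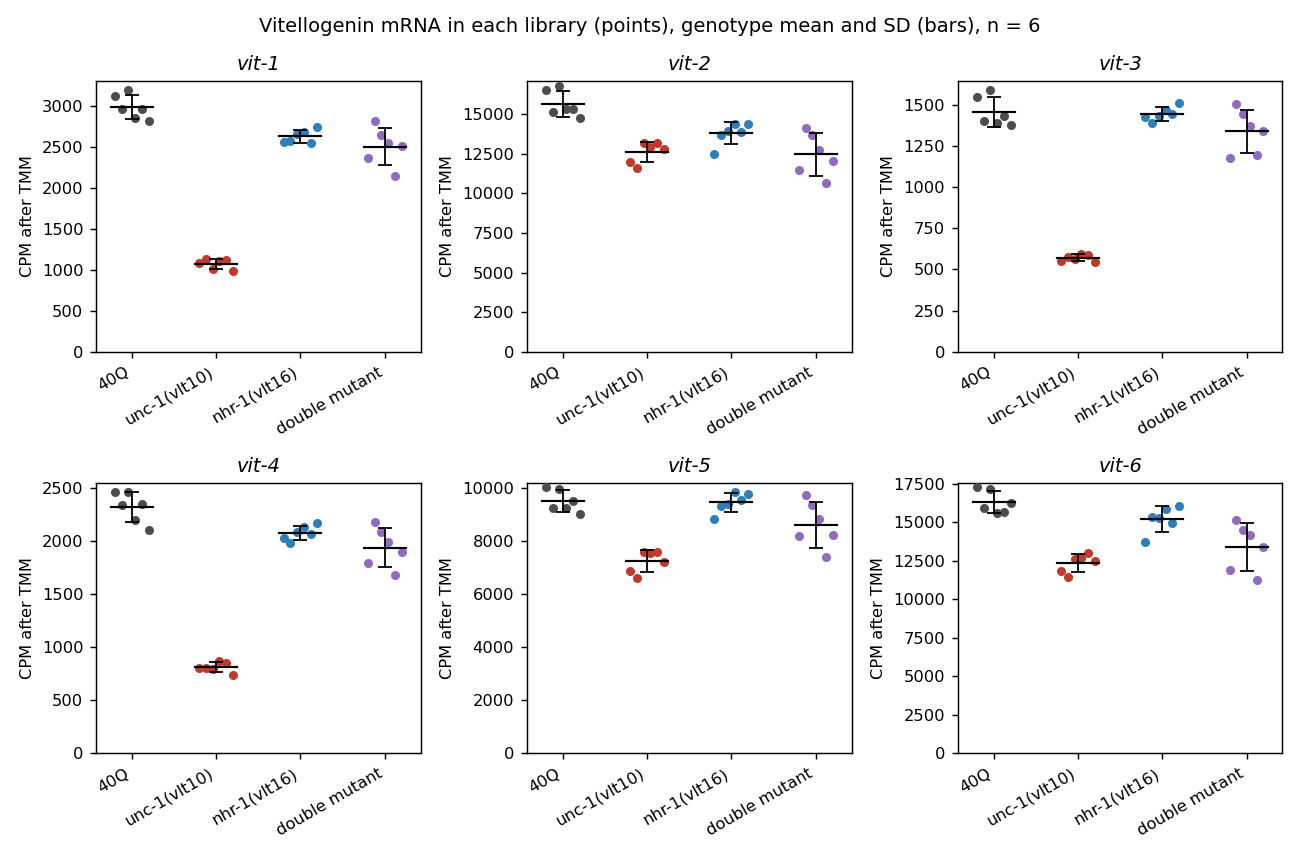
Level of each vitellogenin in CPM after TMM scaling (vertical axes, starting at 0) in the 4 genotypes, with 1 point per library and bars for the mean and SD of 6 libraries. The unc-1(vlt10) points of vit-1, vit-3 and vit-4 lie far below all others, those of vit-2, vit-5 and vit-6 only somewhat below 40Q, and the double mutant points are the most spread.

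Because reads on vit-3, vit-4 and vit-5 may be shared among the copies, these 3 genes were also summed. The log2 fold change of the sum was -0.62 in unc-1(vlt10) against 40Q, between that of vit-5, which supplies most of the reads, and those of vit-3 and vit-4. vit-1, which is not one of those 3 genes, changed as much as vit-3 and vit-4 did. Whether reads on vit-1 also fit other vitellogenins was not examined.

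Ratios within a library need no scaling between libraries, and they showed the same division. Among the 9 ratios of vit-1, vit-3 or vit-4 to vit-2, vit-5 or vit-6, all 9 were lower in every unc-1(vlt10) library than in every 40Q library, with means shifted 1.93- to 2.31-fold. The ratio of vit-1 to vit-2 reads was 0.191 ± 0.00350 in 40Q and 0.0853 ± 0.00800 in unc-1(vlt10), and that of vit-4 to vit-5 was 0.244 ± 0.00717 and 0.112 ± 0.00755. The 3 ratios among vit-1, vit-3 and vit-4 shifted 1.03- to 1.12-fold, and the 3 ratios among vit-2, vit-5 and vit-6 shifted 1.01- to 1.06-fold. These shifts were smaller, although 2 of the 3 ratios in each of these sets also did not overlap between unc-1(vlt10) and 40Q. vit-1, vit-3 and vit-4 together made up 14.0 ± 0.277% of the vitellogenin reads in 40Q, 7.09 ± 0.484% in unc-1(vlt10), 13.8 ± 0.440% in nhr-1(vlt16) and 14.4 ± 0.229% in double mutants. The share in the unc-1(vlt10) libraries never exceeded 7.81%, and in no library of the other genotypes was it under 13.4%. The grouping was made after the values were seen and is given as a description.

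**Figure D2:**
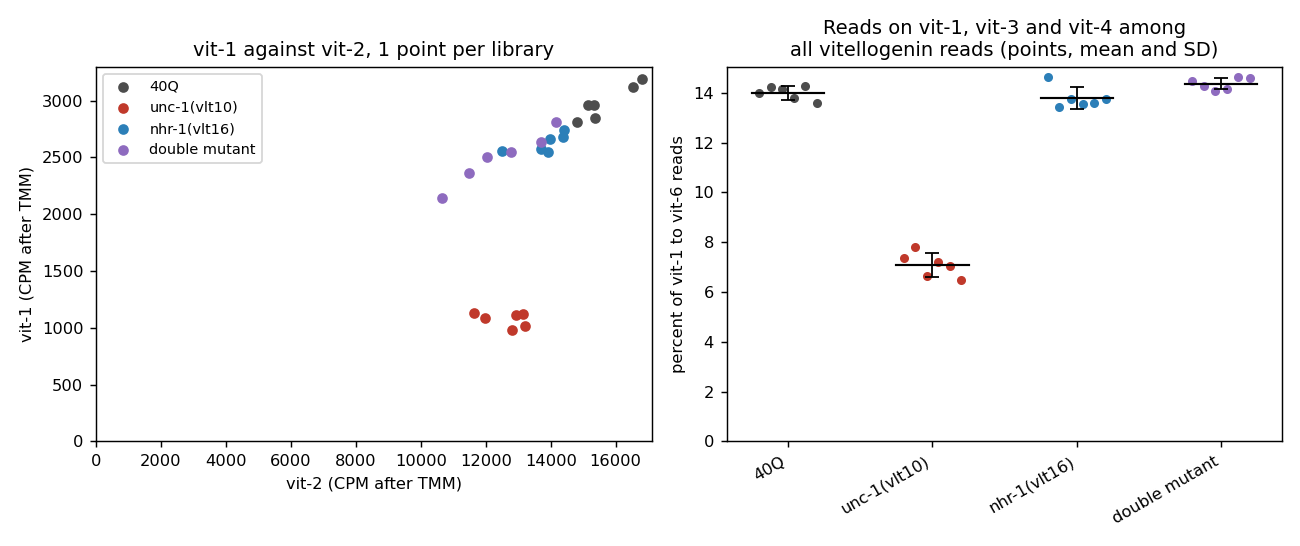
Left, vit-1 against vit-2 in CPM after TMM scaling, 1 point per library. Right, reads on vit-1, vit-3 and vit-4 as a percent of the reads on all 6 vitellogenins in each library, with mean and SD of 6. The unc-1(vlt10) libraries lie apart from a common line of the other 3 genotypes on the left and near 7.09% on the right, where the other means are 13.8% to 14.4%.

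The second comparison asked what the nhr-1 allele does alone. In nhr-1(vlt16) no vitellogenin changed more than 2-fold, and vit-1, vit-2 and vit-4 were slightly lower than in 40Q. In this comparison 1.33% of all tested genes were called lower and 22.0% were lower (20.5% higher) with an adjusted p below 0.05, against 0 and 3 of the 6 vitellogenins (3 with an unadjusted p below 0.05 in edgeR, and 0 called in DESeq2). The groups did not overlap for vit-1 and vit-2, as was so for 10.2% of the tested genes in the lower direction. vit-1 had 2545, 2617 and 2743 CPM in nhr-1(vlt16), a log2 fold change of -0.18 (SE 0.0467, edgeR adjusted p = 0.00220). vit-2 had 12500.5, 13942 and 14406 CPM and changed by -0.18 (SE 0.0519, adjusted p = 0.00574). Both lay just under the 40Q range. vit-4, with 1982, 2075 and 2175 CPM, changed by -0.16 (SE 0.0494, edgeR adjusted p = 0.00998) and overlapped 40Q. vit-6 at 13739, 15304 and 16069 CPM did not pass the test, with a log2 fold change of -0.10 (SE 0.0533, adjusted p = 0.131). vit-3 (1446 ± 41.9 CPM) and vit-5 (9472 ± 368 CPM) had log2 fold changes of -0.0100 (SE 0.0474) and -0.00747 (SE 0.0487), and their sign turned with the scaling.

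In the double mutants the levels of vit-1, vit-3 and vit-4 lay close to those of nhr-1(vlt16) and far above those of unc-1(vlt10). The means of vit-2 and vit-6 lay nearer to unc-1(vlt10) than to nhr-1(vlt16). For vit-2 they were 12465 CPM in double mutants, 12622 in unc-1(vlt10) and 13811 in nhr-1(vlt16). For vit-6 they were 13399, 12347 and 15212 CPM in the same order. Against unc-1(vlt10), vit-1, vit-3 and vit-4 were 2.33- to 2.39-fold higher and were called, against 3.59% of all tested genes called higher. Their libraries did not overlap with those of unc-1(vlt10), as for 12.3% of the tested genes. vit-5 also had an adjusted p below 0.05 and was higher, as 21.6% of the tested genes were (21.7% were lower), and vit-2 and vit-6 did not pass the test.

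vit-1 had 2146, 2526 and 2812 CPM in the double mutants, a log2 fold change of 1.22 against unc-1(vlt10) (SE 0.0474, edgeR adjusted p = 1.17e-19). vit-3 had 1179, 1356 and 1509 CPM and changed by 1.23 (SE 0.0482, adjusted p = 1.41e-19). vit-4, with 1682, 1948 and 2178 CPM, changed by 1.26 (SE 0.0502, adjusted p = 2.26e-19). All double mutant libraries of these genes were at least 1.90 times the highest unc-1(vlt10) library. For vit-5, at 7396, 8537 and 9751 CPM, the change was 0.25 (SE 0.0487, edgeR adjusted p = 8.41e-05), and the lowest double mutant library, replicate 5, was within the unc-1(vlt10) range. For vit-6, at 11238, 13787 and 15152 CPM, the change was 0.12 (SE 0.0533, adjusted p = 0.0732). For vit-2, at 10644, 12403 and 14151 CPM, it was -0.0181 (SE 0.0519, adjusted p = 0.811) and the libraries overlapped. The sign of the vit-2 value turned without double mutant replicate 1 or 5, and vit-6 passed the test without either (adjusted p = 0.0262 and 0.00819). The summed vit-3, vit-4 and vit-5 had a log2 fold change of 0.46.

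Against 40Q, which is shared with the comparisons above, the double mutants had lower values of all 6 genes by at most 1.26-fold. No vitellogenin was called by edgeR or DESeq2, against 0.727% of all tested genes called lower, and all 6 had an adjusted p below 0.05, against 17.3% of the tested genes in this direction (and 14.9% in the other). The log2 fold changes were -0.25 for vit-1 (SE 0.0467, edgeR adjusted p = 1.01e-04), -0.33 for vit-2 (SE 0.0519, adjusted p = 1.25e-05) and -0.28 for vit-6 (SE 0.0533, adjusted p = 1.35e-04). These 3 genes did not overlap with 40Q, as 6.63% of the tested genes did not in the lower direction. vit-4 changed by -0.26 (SE 0.0494, edgeR adjusted p = 1.58e-04), vit-5 by -0.14 (SE 0.0487, adjusted p = 0.0252) and vit-3 by -0.12 (SE 0.0474, adjusted p = 0.0499), and these overlapped. The results for vit-3 and vit-5 were lost without double mutant replicate 5 (adjusted p = 0.149 and 0.0879), and with total counts in place of TMM scaling (0.176 and 0.0723). Both were also lost in an edgeR fit of only these genotypes (0.124 and 0.0638) and under limma on log2(FPKM + 0.1) (0.184 and 0.0851). That of vit-3 was lost as well with RLE size factors in edgeR (0.0542) and with other filters on low counts (0.0548 and 0.0557). It was further lost without 40Q replicate 1 or 3 or double mutant replicate 1 or 6.

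**Figure D3:**
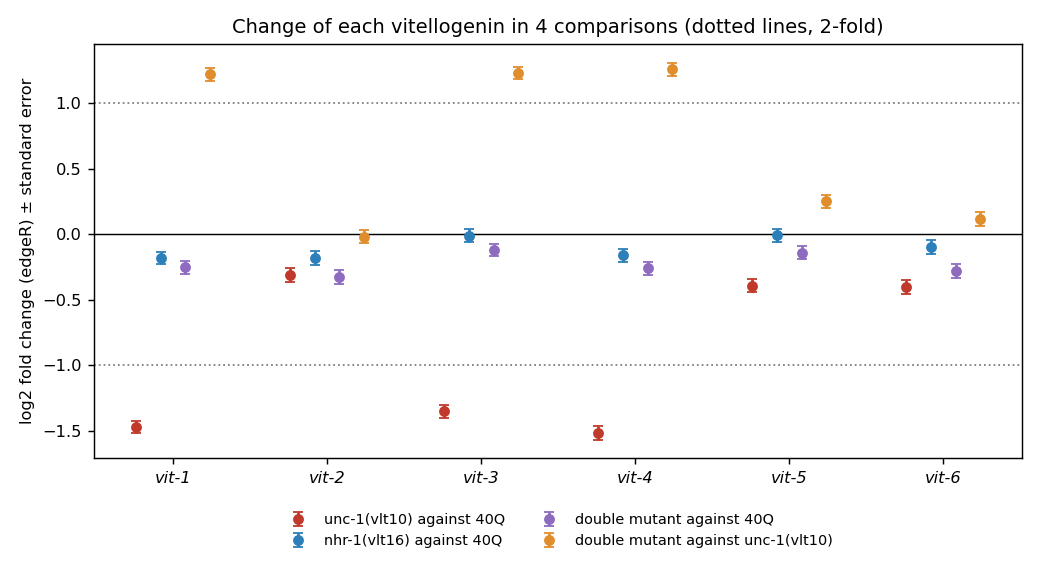
Log2 fold change of each vitellogenin with its standard error (edgeR, 6 libraries per genotype) in 4 comparisons, with dotted lines at 2-fold. The unc-1(vlt10) values of vit-1, vit-3 and vit-4 (-1.35 to -1.52) and the double mutant values of the same genes against unc-1(vlt10) (1.22 to 1.26) are outside the lines, and all others are inside.

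The double mutants varied most among their own libraries, and the shared estimate of the spread in the tests does not allow for this. Replicate 5 had the lowest level of 5 of the 6 genes and replicate 1 that of the other, and replicate 2 had the highest level of all 6. The summed vitellogenin CPM was 34297 in replicate 5 and 45554 in replicate 2, and the range in 40Q was 46389.6 to 51178. The share of vit-1, vit-3 and vit-4 among the vitellogenin reads varied little between the same libraries (14.1% to 14.6%), so the 6 genes were high or low together.

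The 2 single mutants and the double mutant were also set against each other. unc-1(vlt10) had lower vit-1, vit-3 and vit-4 than nhr-1(vlt16), with log2 fold changes of -1.29, -1.34 and -1.36 (SE 0.0475, 0.0484 and 0.0504, edgeR adjusted p at most 3.83e-20), all called, against 2.68% of the tested genes. vit-5 (-0.38, SE 0.0488, adjusted p = 9.22e-08) and vit-6 (-0.30, SE 0.0533, adjusted p = 2.52e-05) were lower by less than 2-fold, and every gene but vit-2 was without overlap, as were 11.6% of the tested genes in this direction. vit-2 (-0.13, SE 0.0519, edgeR adjusted p = 0.0470, one of the 19.2% of tested genes lower at this level) lost its adjusted p below 0.05 on leaving out any unc-1(vlt10) library or any of nhr-1(vlt16) replicates 2 to 6 (0.0598 to 0.164). With all libraries kept, it was lost in edgeR with total counts (0.0768) and with totals that leave out the vitellogenins (0.0515). It was also lost with other filters on low counts in edgeR (0.0620 and 0.0640) and under limma on FPKM with any pseudocount or filter (0.103 to 0.112). Between double mutants and nhr-1(vlt16), 0 vitellogenins were called by edgeR or by DESeq2 (0.215% of all tested genes were called lower by edgeR), and vit-2 (-0.15, SE 0.0519, adjusted p = 0.0434) and vit-6 (-0.18, SE 0.0533, adjusted p = 0.0150) had adjusted p below 0.05, as did 9.54% of the tested genes in this direction. At an unadjusted p below 0.05 there were 4. The result for vit-2 was lost without double mutant replicate 1, 4, 5 or 6 or nhr-1(vlt16) replicate 2, 3, 4, 5 or 6 (adjusted p up to 0.151), and that for vit-6 without double mutant replicate 1 or nhr-1(vlt16) replicate 4 or 6 (up to 0.0702). Without double mutant replicate 2, vit-3 and vit-5 passed as well (0.0333 and 0.0153), and without replicate 3 so did vit-5 (0.0389).

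The interaction term asks whether the unc-1 allele changed a gene differently in the presence of the nhr-1 allele. It was called for vit-1, vit-3 and vit-4, against 5.44% of all tested genes with a called positive term, and had an adjusted p below 0.05 for vit-5 and vit-6 as well, against 23.6% of the tested genes. The term was 1.40 on the log2 scale for vit-1 (SE 0.0664, edgeR adjusted p = 6.62e-17), where the unc-1 allele went with -1.47 without and -0.07 with the nhr-1 allele. It was 1.42 for vit-4 (SE 0.0702, adjusted p = 2.18e-16) and 1.24 for vit-3 (SE 0.0674, adjusted p = 1.91e-15). vit-5 and vit-6 had terms of 0.26 and 0.22 (SE 0.0689 and 0.0753, edgeR adjusted p = 0.00269 and 0.0177). vit-2, with 0.16 (SE 0.0734, adjusted p = 0.0674), did not pass the test with all libraries, but did on leaving out any 1 of 14 libraries (40Q replicates 2, 4, 5 and 6, unc-1(vlt10) replicates 3 to 6, nhr-1(vlt16) replicates 3, 4 and 6 and double mutant replicates 1, 5 and 6), at 0.0147 to 0.0491.

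Across the 24 libraries the levels of the vitellogenins rose and fell together. The correlation of log2 CPM ranged from 0.489 (vit-2 and vit-3) to 0.998 (vit-1 and vit-4) over the 15 pairs. After each genotype's mean was taken off, it ranged from 0.682 (vit-1 and vit-5) to 0.978 (vit-2 and vit-5). The lowest values across all libraries were those of vit-2 with vit-1, vit-3 and vit-4 (0.489 to 0.539). vit-5 also parted from these genes in unc-1(vlt10), but its correlations with them were 0.884 to 0.896. Within genotypes vit-2 and vit-5 moved most closely. All points share library, depth and scaling factor, and these values are a description.

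Regulators of vitellogenin transcription were examined as a list of 12 genes. In unc-1(vlt10) against 40Q, 7 of the 12 were lower and 1 was higher with an adjusted p below 0.05 (22.6% and 25.1% of all tested genes), and 1 was called. The median log2 fold change was -0.14, in a range of -1.08 to 0.14. Members were not sorted by whether they raise or lower vitellogenin transcription, and mab-3 is a repressor. pqm-1, a zinc finger gene of the insulin pathway, was the called gene, with 39.0, 47.2 and 49.1 CPM in 40Q and 18.9, 21.0 and 24.7 CPM in unc-1(vlt10) (log2 fold change -1.08, SE 0.0717, edgeR adjusted p = 6.15e-14). ceh-60, which encodes the PBX-type homeodomain protein, had 8.20, 9.38 and 11.7 CPM in 40Q and 5.50, 5.92 and 6.01 CPM in unc-1(vlt10) (log2 fold change -0.75, SE 0.0824, adjusted p = 4.98e-09). Neither gene overlapped between these genotypes, and the ceh-60 change stayed under 2-fold.

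In the double mutants ceh-60 returned to 8.89 ± 0.516 CPM, which was 0.60 above unc-1(vlt10) on the log2 scale (SE 0.0813, edgeR adjusted p = 2.93e-07) and not shown to differ from 40Q (-0.15, SE 0.0777, adjusted p = 0.138). pqm-1 rose in part, to 30.4 ± 3.39 CPM (0.50 above unc-1(vlt10), SE 0.0720, adjusted p = 9.14e-07), and remained below 40Q in double mutants (-0.58, SE 0.0684, adjusted p = 8.71e-08) as it was in nhr-1(vlt16) (-0.49, SE 0.0693, adjusted p = 1.81e-06). The interaction was 0.90 for ceh-60 (SE 0.114, edgeR adjusted p = 1.20e-07) and 0.99 for pqm-1 (SE 0.0999, adjusted p = 1.70e-09). Whether the levels of these regulators had a part in those of the vitellogenins was not tested.

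Among the other regulators, elt-2, the intestinal GATA factor, was at 15.2 ± 1.12 CPM in 40Q and 13.2 ± 1.76 in unc-1(vlt10) (log2 fold change -0.20, SE 0.0753, edgeR adjusted p = 0.0303), and it was lower than 40Q by a like amount in nhr-1(vlt16) (-0.26) and double mutants (-0.21). lin-29, which acts at the switch from larva to adult, had a log2 fold change of -0.28 in unc-1(vlt10) (SE 0.107, adjusted p = 0.0292), and lin-14, an earlier timing gene named after its values were seen, one of -0.74 (SE 0.101, adjusted p = 3.09e-07). Relative to unc-1(vlt10), both were higher in the double mutants, lin-29 by 0.31 (adjusted p = 0.0163) and lin-14 by 0.88 (adjusted p = 6.24e-09) on the log2 scale. unc-62, which encodes the partner of CEH-60, did not pass the test in unc-1(vlt10) (-0.07, SE 0.0476, edgeR adjusted p = 0.246). mab-3, the repressor of vitellogenins in males, was at 0.430 ± 0.176 CPM in 40Q, too low for its changes to be judged (SE 0.428). In nhr-1(vlt16) 5 of the 12 regulators were lower and 2 higher with an adjusted p below 0.05, against 22.0% and 20.5% of all tested genes. In double mutants against 40Q 3 were lower and 0 higher (17.3% and 14.9% of all tested genes), and in double mutants against unc-1(vlt10) 5 were higher and 0 lower (21.6% and 21.7%).

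Genes for yolk assembly and uptake, a list of 11, had no called member in these 4 comparisons. In unc-1(vlt10) 4 were lower and 4 higher than in 40Q with an adjusted p below 0.05 (22.6% and 25.1% of all tested genes), and the median log2 fold change was 0.0182. dsc-4, for the lipid transfer protein, was at 61.6, 68.0 and 69.9 CPM in 40Q and 48.8, 51.7 and 56.0 CPM in unc-1(vlt10) (log2 fold change -0.37, SE 0.0498, edgeR adjusted p = 2.57e-07), with no overlap. Both other genotypes also had less dsc-4 than 40Q, nhr-1(vlt16) by -0.24 on the log2 scale (adjusted p = 3.23e-04) and the double mutants by -0.21 (adjusted p = 0.00132). rme-2, for the yolk receptor of oocytes, was at 939.7 ± 38.9 CPM in 40Q and 966 ± 25.2 in unc-1(vlt10) and did not pass the test there (0.04, SE 0.0368, edgeR adjusted p = 0.398), nor in double mutants against 40Q (-0.07, SE 0.0368, adjusted p = 0.122). In nhr-1(vlt16) 2 genes of the list were higher and 2 lower (20.5% and 22.0% of all tested genes), and in double mutants against 40Q 0 were higher and 4 lower (14.9% and 17.3%).

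**Figure D4:**
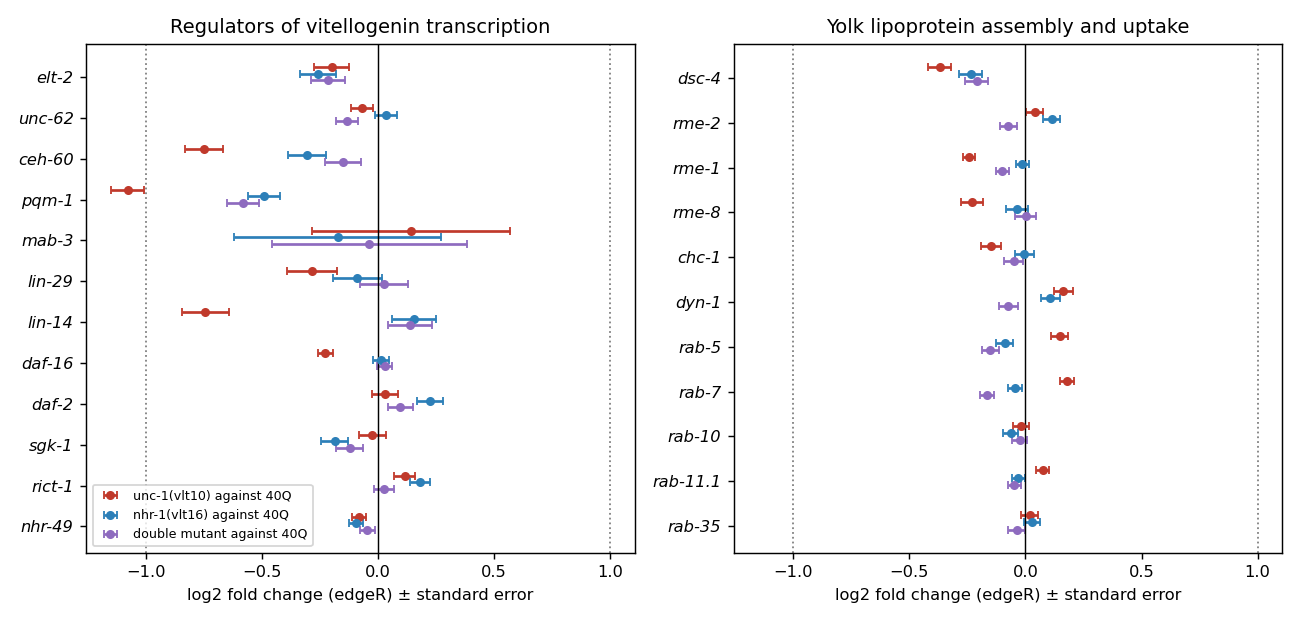
Log2 fold change with standard error (edgeR) against 40Q of 12 regulators of vitellogenin transcription (left) and 11 genes of yolk assembly and uptake (right), with dotted lines at 2-fold. pqm-1 in unc-1(vlt10) is the only point beyond a dotted line, and the wide bars of mab-3 go with its low counts.

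Markers of the tissue that makes the vitellogenins moved in part with them. Of 11 intestinal genes, 8 decreased and 1 increased in unc-1(vlt10) with an adjusted p below 0.05 (22.6% and 25.1% of all tested genes), the median log2 fold change was -0.66, and pept-1 and nhx-2 were called. pept-1, an oligopeptide transporter of the gut, was at 75.1, 93.7 and 96.2 CPM in 40Q and 18.6, 20.7 and 23.8 CPM in unc-1(vlt10) (log2 fold change -2.12, SE 0.0710, edgeR adjusted p = 4.03e-21). nhx-2, a sodium-proton exchanger of the gut, changed by -1.11 (SE 0.0606, adjusted p = 5.86e-16). In double mutants against unc-1(vlt10), pept-1 was higher by 1.85 (SE 0.0707, adjusted p = 8.23e-20) and called, as 1 of 8 intestinal genes that were higher (21.6% of all tested genes).

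The gut esterase ges-1, named after its values were seen, had 29.8 ± 2.96 CPM in 40Q and 28.6 ± 1.78 in unc-1(vlt10) (log2 fold change -0.06, SE 0.0645, edgeR adjusted p = 0.486) and did not pass the test. The summed level of the 11 intestinal genes was 2869.9 ± 124 CPM in 40Q, 2391 ± 71.8 in unc-1(vlt10), 2684 ± 55.7 in nhr-1(vlt16) and 2873 ± 195 in double mutants. The range was 2709 to 3059 CPM in 40Q and 2302 to 2464 in unc-1(vlt10), without overlap, and no defining marker was at 0. In nhr-1(vlt16) 7 of the 11 were lower and 0 higher (22.0% and 20.5% of all tested genes), and in double mutants against 40Q 5 were lower and 1 higher (17.3% and 14.9%). The part of these changes in the vitellogenin levels was not tested.

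Markers of stage and of other tissues were compared because vitellogenin mRNA depends on age. Of 12 oocyte and eggshell genes, 9 increased and 1 decreased in unc-1(vlt10) with an adjusted p below 0.05 (25.1% and 22.6% of all tested genes, as for the other marker lists in this comparison), with log2 fold changes of -0.10 to 0.21, and their summed level ranged over 10910.1 to 11866 CPM in 40Q and 12059 to 12506 CPM in unc-1(vlt10). Of 6 early zygotic genes tested, which mark embryos in the uterus, 4 were higher and 0 lower, and the 7 genes of the list summed to 23.0 to 40.8 CPM in 40Q and 42.4 to 52.0 CPM in unc-1(vlt10). These groups thus did not fall with the vitellogenins in unc-1(vlt10). Increases in both lists were also seen in nhr-1(vlt16). There, 9 oocyte and eggshell genes increased and 0 decreased with an adjusted p below 0.05 (20.5% and 22.0% of all tested genes). Their summed level was 11979 to 13302 CPM. Among early zygotic genes, 5 increased and 0 decreased in nhr-1(vlt16), and the list summed to 45.8 to 55.3 CPM. Of 6 adult cuticle genes, 3 decreased and 0 increased in unc-1(vlt10). The cuticle sum went from 1491 to 1789.7 CPM in 40Q to 1113 to 1178 CPM in unc-1(vlt10). In double mutants it was 1409.6 to 1823 CPM. col-7, a cuticle collagen, was called higher in the double mutants, relative to unc-1(vlt10) (log2 fold change 1.38, SE 0.149, edgeR adjusted p = 3.43e-09).

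Of 6 body wall muscle genes, 4 decreased and 1 increased in unc-1(vlt10), and their sum was 5488 to 6399 CPM in 40Q and 4633 to 4970.1 CPM in unc-1(vlt10). In nhr-1(vlt16) all 6 were lower with an adjusted p below 0.05 (22.0% of all tested genes), with a sum of 4574 to 4998 CPM. Of 5 moult genes, 2 increased and 1 decreased in unc-1(vlt10). Of 8 sperm genes tested, 1 was higher and 0 lower in unc-1(vlt10), whereas 6 were lower and 1 higher in nhr-1(vlt16) (22.0% and 20.5% of all tested genes), with msp-3 (-1.15, SE 0.125, edgeR adjusted p = 2.03e-08), msp-10 (-1.02) and msp-19 (-1.01) called. Those encode major sperm proteins, near-identical copies whose reads cannot be assigned with certainty. Over the remaining comparisons the called genes of these lists were pept-1 (-1.66) and msp-3 (1.06) in unc-1(vlt10) against nhr-1(vlt16), msp-10 (1.15) in double mutants against nhr-1(vlt16), and pept-1 (2.30), nhx-2 (1.25), msp-10 (1.43) and the collagen genes col-7 (1.78), col-62 (1.23) and rol-6 (1.07) in the interaction, all as log2 values. What the stage and tissue markers contributed to the vitellogenin differences was not tested.

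Finally, the genes whose log2 CPM was most like that of the summed vitellogenins over the 24 libraries were listed, by Pearson's r and without a test. They were eat-6 (r = 0.951), which encodes a sodium-potassium ATPase subunit, pod-2 (0.948), acetyl-CoA carboxylase, lap-2 (0.947), an aminopeptidase, clh-1 (0.942), a chloride channel, mlk-1 (0.936), a kinase, mct-6 (0.935), rme-1 (0.931), which acts in endocytic recycling, and vgln-1 (0.928), a vigilin. pod-2, for example, had a mean of 579 CPM in 40Q, 401 in unc-1(vlt10), 515 in nhr-1(vlt16) and 513 in double mutants. With each genotype's mean taken off, r was 0.917 for pod-2 and 0.615 for mlk-1, the lowest of the 8. The summed level is set mostly by vit-6, vit-2 and vit-5, and its points share library and scaling.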

How the data were processed

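RNA from pooled young adults of 4 genotypes was sequenced by Novogene after oligo(dT) selection and random priming, with 6 libraries per genotype, assigned by their labels. Per the submitters' processing notes, the authors aligned reads with HISAT2 2.0.5, counted with HTSeq 0.6.1 and tested with DESeq2 1.24.0. The genome was WBcel235, and read length, strand setting and the treatment of reads that fit several genes are not given in the sources used here. The authors deposited raw counts per gene, and FPKM values that equal each count divided by gene length and library total, without TMM scaling. Deposited tables of their own comparisons (mean levels, fold changes, p-values) were not used.

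Counts were fitted in R 4.3.3 with edgeR 4.0.16 (TMM, filterByExpr, 4 genotypes as the only term, quasi-likelihood F-tests, Benjamini-Hochberg over 14865 genes), after the script was tested on simulated data. The SE is the size of the log2 fold change divided by the square root of F. Calls used the study's threshold of 2-fold and 0.05. Levels and correlations were computed in Python 3.11.15 with pandas 2.3.3, and log2 CPM used a prior count of 2. Gene models came from Ensembl release 115, which matched 46603 of the 46778 genes. Alternatives were DESeq2 1.42.0, other scalings and filters, limma 3.58.1 on log2(FPKM + pseudocount), a replicate block, leaving out each library, and fits restricted to the genotypes of a comparison.

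The genes named were the vitellogenins, unc-1, nhr-1, the called genes of each list (at most 3 per comparison), 8 chosen regulators and uptake genes, and the 8 genes most correlated with the summed vitellogenins. In addition, lin-14 and ges-1 were named after their values were seen. Members and lists were chosen with earlier results of these data known. Library depth was 19098458 to 30467364 reads.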

Additional observations from a re-analysis of the deposited data

Results flagged for a closer look

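The effect of the unc-1 allele differed between animals without and with the nhr-1 allele for 5 of the 6 vitellogenins, by the interaction term of the edgeR fit with Benjamini-Hochberg adjustment over all genes, against 23.6% of all tested genes with a positive term at an adjusted p below 0.05. The term was 1.40 on the log2 scale for vit-1 (adjusted p = 6.62e-17), 1.24 for vit-3 (1.91e-15), 1.42 for vit-4 (2.18e-16), 0.26 for vit-5 (0.00269) and 0.22 for vit-6 (0.0177, but 0.0538 under limma on log2(FPKM + 1)). For vit-1, vit-3 and vit-4 every double mutant library lay above every unc-1(vlt10) library. Smaller falls from 40Q remained in the double mutants for vit-1 and vit-4 (-0.25 and -0.26 on the log2 scale, edgeR adjusted p = 1.01e-04 and 1.58e-04). The same was so for vit-6 (-0.28, edgeR adjusted p = 1.35e-04). The fall of vit-5 (-0.14, edgeR adjusted p = 0.0252) was lost in 8 of the alternatives tried (0.0578 to 0.0884 by edgeR or limma). That of vit-3 (-0.12, edgeR adjusted p = 0.0499) was lost in 16 of the alternatives tried (0.0509 to 0.191 by edgeR or limma). Within each genotype, no library stood far enough from the other 5 to be singled out for any of the 6 genes or their sums.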

How the results depend on the processing

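The calls of vit-1, vit-3 and vit-4 in unc-1(vlt10) against 40Q, in unc-1(vlt10) against nhr-1(vlt16), in double mutants against unc-1(vlt10) and in the interaction held under every scaling, filter, tool and fit tried and without any single library. Without single libraries the log2 fold change in unc-1(vlt10) against 40Q was -1.51 to -1.47 for vit-1, -1.39 to -1.34 for vit-3 and -1.56 to -1.51 for vit-4. With vit-3, vit-4 and vit-5 summed as 1 feature, no test was made, and the value was -0.62. With no fold change threshold, the number of vitellogenins called became 6 in unc-1(vlt10) against 40Q, 3 in nhr-1(vlt16) against 40Q, 6 in double mutants against 40Q, 2 in double mutants against nhr-1(vlt16), 6 in unc-1(vlt10) against nhr-1(vlt16) and 5 in the interaction.

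Small differences were less stable. In double mutants against nhr-1(vlt16) the number with an adjusted p below 0.05 went from 2 to 1 with no filter on low counts, in a fit of only these genotypes and under limma on FPKM with any pseudocount or filter, and to between 0 and 4 without single libraries. In the other direction, vit-5 also passed in that comparison under DESeq2 (adjusted p = 0.0384), RLE size factors (0.0491), total counts (0.0467) and totals that leave out the vitellogenins (0.0443). The log2 value of vit-2 in double mutants against unc-1(vlt10) turned to 0.0054 and 0.0184 without double mutant replicates 1 and 5 (range without single libraries -0.0597 to 0.0184). In nhr-1(vlt16) against 40Q, vit-3 and vit-5 turned to 0.019 and 0.0212 with total counts, 0.0149 and 0.0172 with totals that leave out the vitellogenins, and 0.0203 and 0.0213 under limma on log2(FPKM + pseudocount). In nhr-1(vlt16) against 40Q, vit-6 passed the test (0.0419) in a fit of only these genotypes. The causes were not tested.

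Replicate numbers did not pair the samples: over the 36 same-numbered pairs of libraries from different genotypes, deviations from the genotype means correlated by -0.15 to 0.17, and 2 of 36 correlated best with their own number. With replicate number as a block no vitellogenin call changed, with 3 called in unc-1(vlt10) against 40Q, and vit-3 in double mutants against 40Q went to an adjusted p of 0.0566.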
